A study of Mus musculus and Mus musculus musculus x Mus musculus castaneus with 8 samples.

Results

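Of the 8257 ATAC-seq peaks called in mouse nuclei after nuclear transfer (NT) to Xenopus laevis oocytes, 2502 (30.3%) were newly opened and were seen only in the control transfer. The peaks were chosen by position alone. A peak was taken when it lay at least 5000 bp, edge to edge, from every peak of the donor cells and overlapped by not even 1 bp a peak of the transfer with Toca1 or of the C2C12 list made from 50000 cells. These positions are measured values, so the absence of these peaks from those 3 lists was selected on and is not a result. The remaining list, of C2C12 from 1000 cells, was not used in the choice and overlapped 31 of them. Newly opened peaks of any kind numbered 3146. Of these, 520 were overlapped by a Toca1 peak, 259 by a C2C12 peak and 135 by both, which left 644 newly opened peaks for comparison: 385 shared with Toca1 only, 124 with C2C12 only and 135 with both. The control-only peaks were narrow, and 1982 of them had no other control-only peak within 50000 bp. At a promoter of a gene without a donor peak stood 92 of them (3.68%), against 20.7% of the other newly opened peaks. The other peaks were chosen for overlapping lists that the paper reports as enriched around start sites, so this gap is a description. The promoters with a control-only peak included those of Utf1, Fgf4 and Nodal, genes of the early embryo.

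The donor cells were mouse embryonic fibroblasts (MEFs), established from embryos of a cross of Mus musculus musculus with Mus musculus castaneus and permeabilized for transfer. The control condition was MEFs 48 h after NT into oocytes without added Toca1, with 1 peak list standing for 2 libraries. The Toca1 condition was MEFs 48 h after NT into oocytes overexpressing Toca1 (also named Fnbp1l), with 1 library, and donor MEFs before NT were also 1 library. Each of these libraries was made from 3000 cells. C2C12, a mouse myoblast cell line of C3h origin, gave 1 list from 50000 cells and 1 from 1000 cells, each standing for 2 libraries, and the 1000-cell libraries skipped the column purification used for the others. All transferred nuclei sat in a frog oocyte that neither divides nor replicates DNA, so the model holds mouse chromatin in the contents of an oocyte of another species. The lists held 8257 peaks for control NT, 16412 for Toca1 NT and 39592 for donor MEFs. Those of C2C12 held 52697 peaks from 50000 cells and 34771 from 1000 cells. Each list gives the positions of peaks that passed a false discovery rate of 0.01, with no score and no read number. The depth is therefore unknown, no spread between replicates can be given, and a site open in a few cells cannot be told apart from one weakly open in all. The Toca1 treatment cannot be told apart either from the single library that carried it or from its depth. Intervals below are 95% Wilson or Newcombe intervals over peaks. They cover counting error only, and peaks of 1 list are not replicates of a condition.

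ATAC-seq marks accessible DNA by letting the Tn5 transposase insert sequencing adaptors where nucleosomes leave the DNA exposed. In somatic cells the most accessible sites are usually promoters, many of them rich in CpG, and enhancers. Oocytes contain large stores of chromatin proteins, including linker histone B4, histone chaperones and polymerized nuclear actin, and somatic nuclei placed in an oocyte can switch on silent genes without dividing. Toca1 promotes actin polymerization, and was overexpressed in the study to raise nuclear actin polymerization.

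The lists name positions in the mm9 build, and the bases of the peaks themselves were not used here. For 6 of the genes whose promoter carried a control-only peak, the 250 bases upstream of the start were taken from RefSeq in the GRCm38.p6 build, whose coordinates differ from those of the peaks. They are shown because these genes are described below: Utf1, Fgf4 and Nodal act in the early embryo, Slc30a2 and Brsk1 carried the widest promoter peaks, and Cplx3 is a synaptic gene. Each runs 5′ to 3′ on the strand of the gene and ends at the base before the start. Capitals mark CpG dinucleotides.
Utf1 (chr7:139943606-139943855, plus strand): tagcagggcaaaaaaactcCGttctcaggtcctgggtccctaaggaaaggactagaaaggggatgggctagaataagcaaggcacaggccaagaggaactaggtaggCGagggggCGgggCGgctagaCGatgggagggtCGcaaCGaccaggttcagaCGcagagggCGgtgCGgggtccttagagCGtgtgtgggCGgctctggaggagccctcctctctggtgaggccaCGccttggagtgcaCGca
Fgf4 (chr7:144861136-144861385, plus strand): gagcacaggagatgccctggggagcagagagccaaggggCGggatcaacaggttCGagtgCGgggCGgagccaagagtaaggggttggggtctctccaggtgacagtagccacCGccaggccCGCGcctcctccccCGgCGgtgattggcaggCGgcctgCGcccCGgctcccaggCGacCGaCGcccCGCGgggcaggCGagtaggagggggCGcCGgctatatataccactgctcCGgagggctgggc
Nodal (chr10:61417722-61417971, plus strand): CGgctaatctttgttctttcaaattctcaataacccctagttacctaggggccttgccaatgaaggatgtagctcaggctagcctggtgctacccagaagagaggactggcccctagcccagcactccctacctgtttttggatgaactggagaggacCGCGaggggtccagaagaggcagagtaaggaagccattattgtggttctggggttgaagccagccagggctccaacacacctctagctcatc
Slc30a2 (chr4:134343216-134343465, plus strand): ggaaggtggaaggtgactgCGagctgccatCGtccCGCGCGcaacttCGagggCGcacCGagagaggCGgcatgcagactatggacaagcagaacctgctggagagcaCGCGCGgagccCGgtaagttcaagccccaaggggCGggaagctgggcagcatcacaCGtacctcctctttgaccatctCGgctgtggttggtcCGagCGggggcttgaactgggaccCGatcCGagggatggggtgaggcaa
Brsk1 (chr7:4690678-4690927, plus strand): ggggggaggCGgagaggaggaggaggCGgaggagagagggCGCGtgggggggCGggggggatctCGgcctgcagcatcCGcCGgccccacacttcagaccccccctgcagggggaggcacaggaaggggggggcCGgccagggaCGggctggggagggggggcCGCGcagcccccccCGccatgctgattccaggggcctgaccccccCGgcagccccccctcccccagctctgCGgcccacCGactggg
Cplx3 (chr9:57606282-57606531, minus strand): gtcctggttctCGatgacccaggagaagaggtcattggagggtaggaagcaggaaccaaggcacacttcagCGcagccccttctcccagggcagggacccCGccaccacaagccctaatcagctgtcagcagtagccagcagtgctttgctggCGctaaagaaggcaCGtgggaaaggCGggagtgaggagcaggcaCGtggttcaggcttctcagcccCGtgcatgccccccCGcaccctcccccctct
The bases shown held 14 CpG for Utf1, 21 for Fgf4, 20 for Slc30a2, 16 for Brsk1, 9 for Cplx3 and 3 for Nodal. In the whole window of 300 bases, which also takes in the first 50 bases of the gene, the values were 17, 28, 23, 18, 11 and 5. Over the 27025 genes with such a window the median was 7 and the quartiles were 3 and 21, so Fgf4 and Slc30a2 lay above the upper quartile and Nodal below the median. The GC box (GGGCGG on either strand) was found in the windows of Utf1, Fgf4, Slc30a2 and Brsk1 and is held by 35.9% of all windows. In Utf1 it began 138, 133, 85 and 56 bases before the start, the first pair overlapping by a base. The nuclear receptor motif AGGTCA was found in Cplx3 and is held by 16.0% of all windows. None of these letters was found in the Nodal window, nor was AGATAA (11.4% of all windows), CAGCACC (7.09%) or TATAAA (14.2%), each searched on both strands. A match describes letters and not a bound site. RefSeq windows were found under the listed symbol for 59 of the 90 genes with a control-only promoter peak (65.6%), below the 80% needed, so base composition was not compared between groups of genes.

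Peaks seen only in the control transfer were narrow. Their widths ran from 150 bp to 916 bp with a median of 234 bp and quartiles of 198 and 294 bp. Newly opened peaks shared with C2C12 only had a median of 250.5 bp, those shared with Toca1 only 296 bp, and those shared with both 352 bp. All peaks after NT had a median of 291 bp, and the 3873 that overlapped a donor peak had 376 bp. Of the control-only peaks, 651 were under 200 bp and 188 were at least 400 bp. The share of newly opened peaks that were control-only fell with width, and the cause was not tested. It was 90.4% (88.1 to 92.2) of 809 peaks of 150 to 203 bp, 84.8% of 204 to 241 bp, 79.0% of 242 to 315 bp and 63.7% (60.3 to 67.0) of 782 peaks of 316 to 1106 bp. The widths thus went with the classes that the rule made and are given as a description. The plot of widths shows the control-only peaks packed toward the narrow end.

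**Figure D1:**
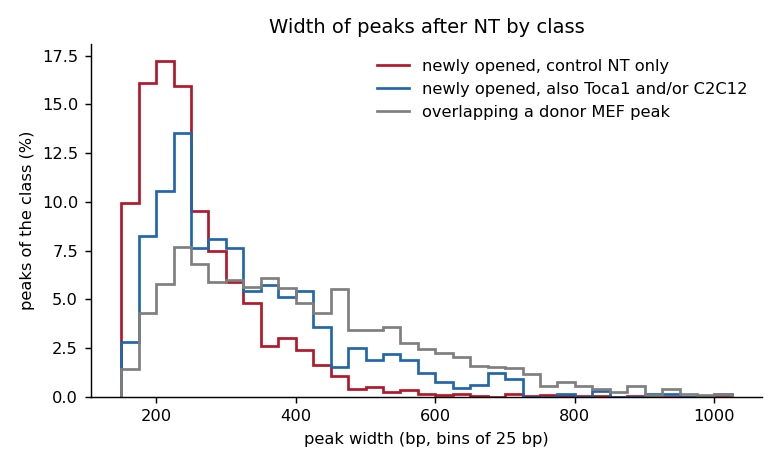
Share of peaks (%) in bins of 25 bp of peak width, for newly opened peaks seen only in the control NT (red, 2502), newly opened peaks also in the Toca1 or C2C12 lists (blue, 644) and peaks after NT overlapping a donor MEF peak (grey, 3873). The medians are 234, 297 and 376 bp. Peaks wider than the axis are not drawn.

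The widest control-only peak lay at chr4:131202311-131203226, 916 bp long, with Ptpru, a receptor tyrosine phosphatase gene, as its closest start site and no gene overlapped. It was 96672 bp from the nearest donor peak and 195985 bp from the nearest Toca1 peak. The next, of 896 bp at chr2:33471195-33472090, overlapped Lmx1b, a homeobox gene of limb and neuron patterning, and lay 30373 bp from a Toca1 peak. A peak of 842 bp at chr8:83865500-83866341 had no annotation in the tables used and was similarly remote from the donor (326335 bp), Toca1 (326389 bp) and 50000-cell C2C12 (325945 bp) lists. Then came promoter peaks of Slc30a2 (818 bp), Brsk1 (772 bp) and Rasal1 (759 bp), described below. The other 4 of the 10 widest were peaks of 797 bp near Degs1, a ceramide synthesis gene, 727 bp near Arpc5, an Arp2/3 complex subunit, 713 bp without annotation on chromosome 5, and 712 bp overlapping Zfp652os. Of the 10, 3 stood on the study's intergenic sheet.

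Distances to the other lists come from the positions used in the choice and are a description. The median distance to a donor peak was 20455 bp, with quartiles of 10851 and 43232 bp, and 214 peaks (8.55%) were farther than 100000 bp. To the nearest Toca1 peak the median was 26225 bp, with 380 peaks (15.2%) farther than 100000 bp, and to the nearest 50000-cell C2C12 peak it was 16050 bp. Other newly opened peaks had similar medians. Their median was 20754.5 bp to a donor peak, 14935 bp to a 50000-cell C2C12 peak for those without one, and 26830.5 bp to a Toca1 peak for those without one. The lower ends differed for Toca1. The 10th percentile was 5069 bp for control-only peaks and 604 bp for the 124 others without a Toca1 peak. Of these 124, all chosen for a C2C12 overlap, 16.9% lay within 5000 bp of a Toca1 peak. A total of 1989 peaks (79.5%) lay at least 5000 bp from the donor, Toca1 and 50000-cell C2C12 lists alike, and 1661 (66.4%) lay that far from all 4 other lists. Near misses were counted in windows of distance. Within 500 bp of a Toca1 peak lay 58 control-only peaks (2.32%, 1.80 to 2.98), and the same number lay within 500 bp of a 50000-cell C2C12 peak. Of the newly opened peaks shared with C2C12 only, 8.87% (5.03 to 15.2) lay within 500 bp of a Toca1 peak. Of those shared with Toca1 only, 4.94% (3.18 to 7.58) lay within 500 bp of a 50000-cell C2C12 peak. Among all peaks after NT, 303 of the 4596 without a Toca1 overlap lay within 500 bp of a Toca1 peak. Within 5000 bp of a Toca1 peak lay 245 control-only peaks (9.79%, 8.69 to 11.02). Among all 4596 peaks after NT without a Toca1 overlap, 16.5% lay that near. Nothing can be read from that gap, since the rule keeps the control-only peaks away from donor sites, where 72.2% of peaks after NT were overlapped by Toca1, against 16.5% of the newly opened peaks.

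**Figure D2:**
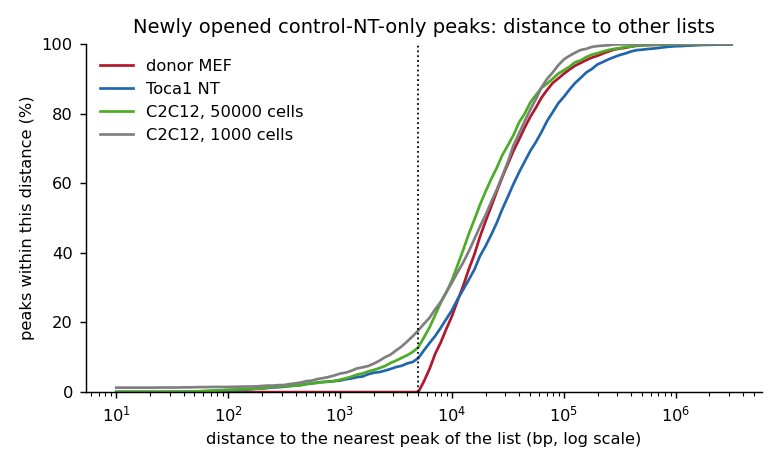
Cumulative share (%) of the 2502 control-only newly opened peaks within a given distance in bp (log scale) of the nearest peak of the donor MEF, Toca1 NT, 50000-cell C2C12 and 1000-cell C2C12 lists. The dotted line marks 5000 bp, below which the rule allows no donor peak. The medians are 20455 bp to a donor, 26225 bp to a Toca1 and 16050 bp to a 50000-cell C2C12 peak.

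Of the 5 control-only peaks most remote from a donor peak, the farthest, at chr4:38196968-38197293, was 1738146 bp from a donor peak, and another on the same chromosome, at chr4:39185623-39185802, was 749637 bp away. Both had 1700009N14Rik as the closest start site. A peak at chr11:14343489-14343710, near 1700046C09Rik, was 1575628 bp from a donor peak. A peak at chrX:113400702-113400979, near Cpxcr1, was 1482784 bp from a donor peak and 7370811 bp from a Toca1 peak. The last of the 5 farthest, at chr15:69835524-69835693 in the body of Gm19782, was 925375 bp away. At the other end, the 5 peaks just inside the limit lay 5009 bp (in Trio, a guanine nucleotide exchange factor gene), 5028 bp (in Maml3, a Notch coactivator), 5033 bp (in Utrn, utrophin), 5034 bp (near Spsb1) and 5041 bp from a donor peak. The 5 nearest peaks left out by the distance lay at 4993, 4986, 4974, 4974 and 4972 bp, with no visible gap in the distances at the limit. Width changed little with distance. The 546 peaks 5000 to 10000 bp from a donor peak had a median of 241 bp and the 214 beyond 100000 bp had 228 bp. The intergenic share was 38.8% (34.8 to 43.0) in the nearest of these classes and 57.9% (51.3 to 64.4) in the farthest, and the share within 5000 bp of a Toca1 peak was 13.6% (10.9 to 16.7) and 5.14% (2.89 to 8.97). The promoter share had no such trend, with values from 2.79% to 4.81% over the 5 classes of distance.

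Where the peaks lay in relation to genes was taken from the study's annotation of newly opened peaks, which names the promoter or gene body only for genes that had no donor peak. Control-only peaks were seldom at such promoters. Of the 2502, 92 (3.68%, 3.01 to 4.49) were at a promoter, 253 (10.1%, 8.99 to 11.4) in a gene body and 1055 (42.2%, 40.2 to 44.1) intergenic, and 1102 had none of these entries. Over all newly opened peaks the shares were 7.15% at a promoter, 9.85% in a gene body and 39.6% intergenic. At a promoter lay 14.0% (10.9 to 17.9) of the peaks shared with Toca1 only, 25.8% (18.9 to 34.2) of those shared with C2C12 only and 34.8% (27.3 to 43.2) of those shared with both. The 644 other newly opened peaks had 133 at a promoter (20.7%), 5.62 times the control-only share. The control-only share minus this was -17.0 percentage points (-20.3 to -13.9). Put the other way, control-only peaks made up 40.9% (92 of 225) of newly opened promoter peaks, 81.6% (253 of 310) of gene-body peaks and 84.7% (1055 of 1245) of intergenic peaks. The other newly opened peaks were chosen for overlapping the Toca1 or C2C12 lists, and the paper reports both as enriched around start sites. The promoter and intergenic shares are thus tied to the rule and are given as a description.

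The gene-body share differed from that of the other newly opened peaks (8.85%) by 1.26 points, with an interval of -1.43 to 3.58. The peaks shared with both other lists had only 3 of 135 in a gene body (2.22%). The intergenic share exceeded that of the other newly opened peaks (29.5%) by 12.7 points (8.55 to 16.6), but its excess over the Toca1-only class (36.9%) was 5.28 points with an interval reaching 0 (-0.01 to 10.3). How the promoters of all genes fare was not analysed here, since promoters that already had a donor peak are outside this annotation.

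**Figure D3:**
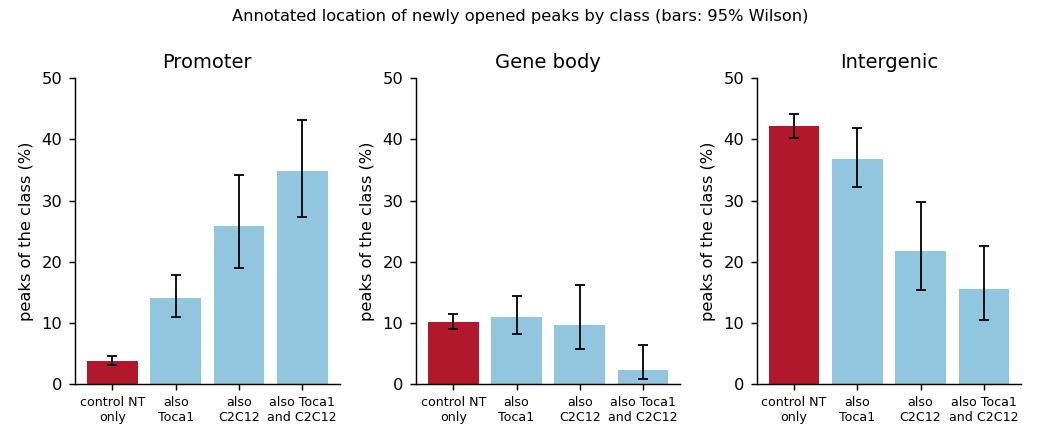
Share (%) of newly opened peaks at an annotated promoter, in a gene body or intergenic, for the 2502 control-only peaks (red) and for those also in the Toca1 list only (385), the C2C12 list only (124) or both (135). Error bars are 95% Wilson intervals over peaks. The promoter share runs from 3.68% in the control-only class to 34.8% in the class shared with both.

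Because narrow peaks are less often overlapped, the promoter shares were also compared within 4 classes of width. Among the narrowest peaks, 2.74% of control-only and 14.1% of the other newly opened peaks were at a promoter. The next classes gave 2.45% against 22.2% and 4.69% against 17.6%, and the widest gave 5.42% against 23.6%. The intervals did not overlap in any of the 4 classes. The control-only promoter share was the lower on 20 of 20 chromosomes, and the intergenic share the higher on 19 of 20, X being the exception. The width classes and the chromosomes split the same peaks, and the rule acts in every part. The parts are not replicates, so these comparisons are a description and add no separate evidence. Other definitions of a shared peak keep this tie to the rule. The promoter share was 5.70% of control-only against 18.5% of other peaks when an overlap of 50% of both peaks was asked. It was 3.13% against 19.9% when peaks within 500 bp counted as shared. For peaks of at least 250 bp it was 5.62% against 22.4%, and for peaks at least 10000 bp from a donor peak 3.78% against 23.3%.

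**Figure D4:**
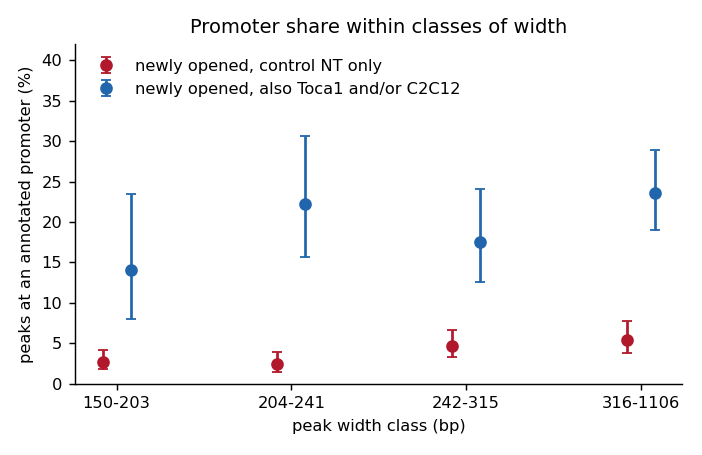
Share (%) of newly opened peaks at an annotated promoter within 4 classes of peak width in bp, for control-only peaks (red) and peaks also in the Toca1 or C2C12 lists (blue). Error bars are 95% Wilson intervals over peaks. The red points lie between 2.45% and 5.42% and the blue points between 14.1% and 23.6%.

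The 1000-cell C2C12 list was not used to choose the peaks, but it comes from the same cell line as the 50000-cell list that was. It overlapped 31 of the 2502 control-only peaks (1.24%, 0.874 to 1.75), against 8.56% of all peaks after NT. The newly opened peaks shared with Toca1 only gave 1.56% (6 of 385), and the control-only share minus this was -0.32 points, with an interval of -2.16 to 0.667. Those shared with C2C12 only gave 3.23% (4 of 124) and those shared with both gave 10.4% (14 of 135). These last classes were chosen for an overlap with the other C2C12 list and the control-only peaks for its absence, so those shares are a description. The list from 1000 cells itself had only 8.48% of its peaks overlapped by the list from 50000 cells of the same line. The promoter peaks of Brsk1 and Cplx3 were among the 31.

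The copy of the study's annotation used here names 495 genes that had no donor peak and gained one after NT. A control-only peak lay at 324 of them (65.5%), at the promoter of 90 and in the body of 239. This share is given beside the control-only counts of the gene groups below, but it mixes locations. Control-only peaks made up 40.9% of newly opened promoter peaks and 81.6% of gene-body peaks. The groups differ in that mix, so a departure from 65.5% cannot be read as a trait of a group. Of 21900 protein-coding symbols in RefSeq, 442 (2.02%) were among the 495 genes. The groups were drawn up with earlier results of these data and the names of the annotated genes known. How many of their genes had a newly opened peak is therefore a description and cannot be set against the 2.02%. The genes are described by where a peak lay, and no transcript was measured in these files.

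Of 26 listed genes of the pluripotent and early embryonic state, 4 had a newly opened peak. In 3 of these a control-only peak lay at the promoter. Utf1, a chromatin-bound transcription factor of embryonic stem cells, had a peak of 335 bp at chr7:147129498-147129832. It lay 7267 bp from a donor peak, 33329 bp from a Toca1 peak and 5951 bp from a 50000-cell C2C12 peak. Fgf4, a growth factor made by the inner cell mass, had a peak of 332 bp at chr7:152047011-152047342, which lay 53213 bp from a donor peak and 122291 bp from a Toca1 peak. No other list therefore had a peak in the neighbourhood of Fgf4, the nearest being a C2C12 peak 45654 bp away. Nodal, the TGF-beta family ligand of mesendoderm and left-right patterning, had a peak of 347 bp at chr10:60880470-60880816. Its case is different, since a 50000-cell C2C12 peak lay only 250 bp away, although the nearest donor and Toca1 peaks were 22772 and 22420 bp off. The peak of Zscan10, the remaining gene of this group, was in the gene body and overlapped a Toca1 peak.

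Among 35 genes of germ cells and meiosis, 8 had a newly opened peak and 4 of them a control-only peak, all in the gene body. These were Figla, an oocyte transcription factor (177 bp), Sycp1, a synaptonemal complex protein (241 bp), Tdrd6, a Tudor protein of male germ cells (265 bp), and Ddx25, a testis RNA helicase (332 bp). The peaks of the other 4, Ddx43, Kit, Syce2 and Tdrd5, were at promoters and each overlapped a Toca1 peak. The nearest Toca1 peak to the Sycp1 peak was 126577 bp away, and to the Figla peak 15660 bp.

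Of the Hox genes, the homeobox genes of the body axis, 2 of 39 had a newly opened peak and both peaks were control-only and in the gene body. The Hoxc8 peak, at chr15:102822864-102823033, was 170 bp wide and lay 6838 bp from a donor peak, 6574 bp from a Toca1 peak and 6072 bp from a C2C12 peak. The Hoxb3 peak, at chr11:96187199-96187456, was 258 bp wide and lay 46677 bp from a donor peak but 6480 bp from a Toca1 peak. Both thus had a Toca1 peak nearby that they did not touch.

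Other developmental transcription factors had 25 genes of 209 with a newly opened peak, 14 of which (56.0%) had a control-only peak. In 3 the peak was at the promoter: Olig1, a glial lineage factor (208 bp), Pou4f2, a retinal ganglion cell factor (274 bp), and Vsx1, a retinal homeobox gene (355 bp). The nearest Toca1 peaks to these lay 102830, 71770 and 60022 bp away. In 11 the peak was in the gene body: Alx4, Bhlhe22, Gata4, Hand2, Lmx1a, Pax2, Pou2f2, Prox1, Rfx4, Sall3 and Zic5. The widest of these was in Prox1, a homeobox gene of lymphatic endothelium and lens (481 bp, 208912 bp from a donor peak). The Bhlhe22 peak was the most remote from Toca1, at 1106863 bp. The peaks of Pou2f2 and Zic5 were near misses, 28 and 173 bp from a Toca1 peak. By contrast, peaks at promoters that included those of Atoh7, Bhlha15, En2, Meis3, Rfx8 and Sox7 overlapped a Toca1 peak and were not control-only, and the peaks of Dmrt3, Pdx1, Spdef and Zic1 overlapped a C2C12 peak.

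Ligands and antagonists of the FGF, WNT and BMP pathways had 12 genes with a newly opened peak and 5 with a control-only one (41.7%): the ligands Fgf4, Nodal, Fgf9 and Wnt3a and the WNT antagonist Sfrp5. The Sfrp5 peak, at its promoter, was 441 bp wide and lay 53526 bp from a Toca1 peak. Those of Fgf9 (206 bp) and Wnt3a (234 bp) were in the gene body, 57003 and 36107 bp from a Toca1 peak. The 7 others, Bmp3, Chrd, Fgf22, Fgf5, Nbl1, Rspo1 and Wnt9b, had peaks shared with the Toca1 or C2C12 lists.

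Genes of synapses and neurons had 20 of 35 with a newly opened peak, and 16 of these (80.0%) had a control-only peak. At the promoter were Cartpt, a neuropeptide (322 bp), Cplx3, a complexin of ribbon synapses (369 bp), Galr1, a galanin receptor (238 bp), Gfra2, the neurturin receptor (457 bp), and Syt5, a synaptotagmin (183 bp). The Cplx3 peak, at chr9:57453960-57454328, lay 4622 bp from a Toca1 peak and 12323 bp from a donor peak. In the gene body were Cckar, Chat, Dnajc6, Doc2a, Gfra3, Kif1a, Nfasc, Ntrk2, Scamp5, Shank1 and Syt12. Of these, the peak in Ntrk2, the BDNF receptor gene, was the farthest from a donor peak (425912 bp), and those in Scamp5 (5542 bp) and Shank1 (5844 bp) were near the limit of the rule. Ion channel genes had 12 of 146 with a newly opened peak and 9 of these with a control-only one. The promoters were those of Kcne3 (377 bp) and Kcnh6 (263 bp), both potassium channel genes, and the gene bodies included those of Kcnh3 (432 bp), Kcnk1 (221 bp), Scn10a (228 bp) and Scn2b (215 bp). Transporters of the Slc6 family had 5 genes with a newly opened peak and 3 with a control-only one: Slc6a4, the serotonin transporter (157 bp, gene body), Slc6a13, a GABA transporter (228 bp, gene body), and Slc6a20a, a proline transporter, with a promoter peak of 335 bp and a gene-body peak of 174 bp.

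Genes of striated muscle had 11 of 29 with a newly opened peak and 8 with a control-only one. The promoter peaks were at Colq, the collagen tail of acetylcholinesterase (266 bp), and Cox7a1, a muscle cytochrome oxidase subunit (210 bp). The gene-body peaks were in Chrna1, Colq, Csrp3, Jph3, Mybpc1, Mybpc3 and Tnnt3. Jph3 is best known from brain. C2C12 is a myoblast line, and the rule allowed no overlap with its list. The nearest 50000-cell C2C12 peak to the Chrna1 peak, in the acetylcholine receptor gene, was 1896 bp away, and that to the Tnnt3 peak, in a fast troponin gene, 23193 bp. Of 27 genes of fatty acid and lipid synthesis, 5 had a newly opened peak and 3 a control-only one. Alox8, a lipoxygenase, had it at its promoter (428 bp). Acsl6 (334 bp), which makes fatty acyl-CoA, and Gpam (345 bp), which uses it, had theirs in the gene body. Of 20 marker genes of fibroblasts and mesenchyme, the donor cell type, 0 were among the 495 genes, which list only genes without a donor peak. The lists do not otherwise allow the donor label to be checked against markers here.

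The widest promoter peak was that of Slc30a2, a zinc transporter gene, at chr4:133898929-133899746 (818 bp). It lay 28661 bp from a donor peak and 6136 bp from a Toca1 peak. That of Brsk1, a kinase of neuronal polarity, at chr7:4642049-4642820 (772 bp), lay 5047 bp from a donor peak, near the limit of the rule, and 4945 bp from a Toca1 and 4905 bp from a 50000-cell C2C12 peak. A 1000-cell C2C12 peak overlapped it. Rasal1, a Ras GTPase-activating protein gene, had a peak of 759 bp, which lay 59626 bp from a donor peak but 3454 bp from a C2C12 peak. Rln1, the relaxin gene, had a peak of 704 bp, and the nearest Toca1 peak was 81714 bp away. After these came a step down to 518 bp at Plcxd1, 457 bp at Gfra2, 441 bp at Gm5069 and at Sfrp5, 434 bp at Cfap73, 428 bp at Alox8, 427 bp at A230070E04Rik, 408 bp at 1700024G13Rik, 393 bp at Sh2d5, 383 bp at Rdh9 and 379 bp at Chd3os. The 10 widest gene-body peaks were in Pcnxl2 (560 bp), Efcab6 (549 bp), Gprin1 (540 bp), Atp6v1c2 (504 bp), Prox1 (481 bp), Lrrc16b (458 bp), Scpep1os (442 bp), Kcnh3 (432 bp), Fam57b (428 bp) and Cyp2d12 (424 bp). Their nearest donor peaks ran from 19344 bp in Kcnh3 to 209476 bp in Cyp2d12. Of the 90 genes with a control-only promoter peak, 81 were protein coding, against 125 of 131 (95.4%) with another newly opened promoter peak. The rest of the 90 were 6 long non-coding RNA genes, 2 microRNA genes and 1 pseudogene.

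Most genes had a single control-only peak, and 22 had 2 or more. Colq, Efcab6, Hkdc1, a hexokinase gene, and Itga9, an integrin gene, had 3 each. In Colq and Efcab6 these were all of the newly opened peaks, while Hkdc1 and Itga9 had 4 newly opened peaks each, 1 of them shared with another list. Pairs were found in 18 genes, which included Ak7, Dmgdh, Fbxl20, Fes, Fstl4, Gucy2d, Hmha1, Ikzf3, Klhl3, Serf1, Slc6a20a, Slc8a3, Tmem132d, Ucp2, Usp30 and Usp51. In all 18 both newly opened peaks were control-only.

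Spacing along the chromosomes was measured for the control-only peaks alone, with no other class beside them. The median distance from a control-only peak to the nearest other one, on either side, was 161075 bp. Only 24 (0.959%) had another within 1000 bp and 114 (4.56%) within 10000 bp, while 896 (35.8%) had one within 100000 bp. Joined at gaps of up to 50000 bp, the 2502 peaks formed 2223 groups, of which 1982 were single peaks, 207 pairs, 30 groups of 3 and 4 groups of 4. The group at chr4:131152144-131247103 had the widest peak of all (916 bp) and 3 others of 220 to 331 bp, all with Ptpru as the closest start site. Their nearest Toca1 peaks were 152108 to 198874 bp away. A group at chr11:55353254-55462554 had 3 peaks in Glra1, a glycine receptor subunit gene, and 1 beside it. A group at chr11:94581086-94646943 lay near Gm11541, Gm11545 and Tmem92, and one of its peaks was 224 bp from a Toca1 peak. The last group, at chr7:151394424-151497449, had no annotation in the tables used.

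Density differed between chromosomes. Chromosome 11 had 236 control-only peaks, 1.94 per Mb, the highest value, and X had 37, 0.222 per Mb, the lowest. The median over the 20 chromosomes was 0.934 per Mb. All peaks after NT were likewise densest on chromosome 11 (6.31 per Mb) and sparsest on X (0.679 per Mb). As a share of all peaks after NT, X (32.7%) lay within the range of the autosomes, which ran from 24.0% on chromosome 17 to 37.5% on chromosome 13. As a share of newly opened peaks, the values ran from 69.7% on chromosome 19 to 91.3% on chromosome 13. The sex of the donor embryos is not given in the labels, and lengths were approximated by the last peak position on a chromosome in any list.

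**Figure D5:**
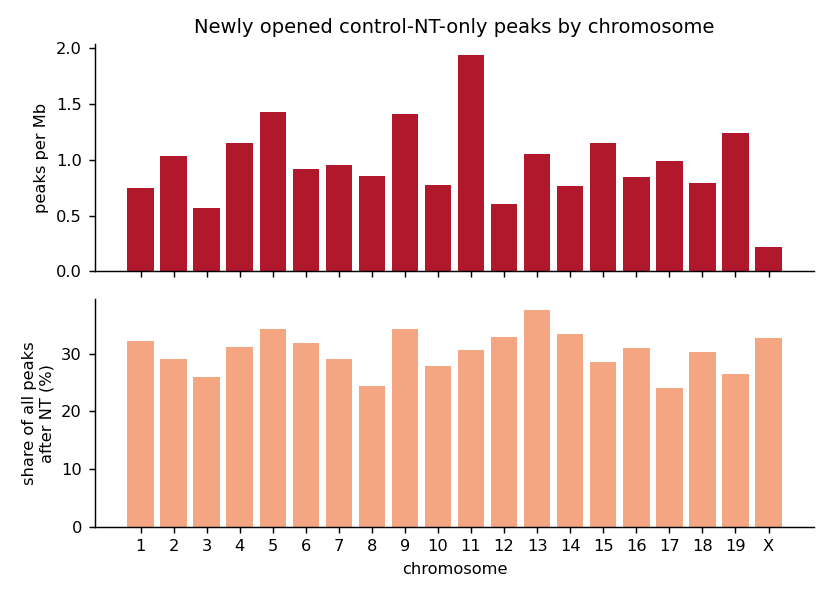
Control-only newly opened peaks by chromosome, as peaks per Mb (upper bars) and as a share of all peaks after NT on that chromosome in % (lower bars). Chromosome 11 is highest per Mb (1.94) and X lowest (0.222), whereas the share on X (32.7%) is like that on other chromosomes.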

How the data were processed

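The authors deposited 1 list of ATAC-seq peaks per condition, giving only where each peak starts and ends, in bp, and no other value. Per the labels' processing notes, the tools were Bowtie2 2.2.1, Picard and MACS2 2.1 and the build mm9, with no role or order given. Whether the 2 libraries of a condition were pooled before calling is not stated in the sources used here. Lists were assigned to conditions by their names. Overlaps, widths and edge-to-edge distances were computed with numpy 2.4.6 and scipy 1.17.1 and drawn with matplotlib 3.10.9 under Python 3.11.15. The code was tested on simulated data, and bedtools 2.31.1 returned the same 2502 peaks. Starts are 1-based. No test across peaks was run. Gene names, promoter, gene body and intergenic labels came from the study's supplementary tables, and the first sheet, which is shortened here, gave names only. All 495 genes matched RefSeq symbols. The members, gene lists and comparisons were chosen with earlier results of these data known, and the gene lists also with the names of the 495 genes known.

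Peaks and genes were named by rule: the 10 widest, the 5 farthest from a donor peak, 5 on each side of the 5000 bp limit, the largest groups, genes with the 15 widest promoter and 10 widest gene-body peaks, genes with 2 or more peaks, members of the gene lists, and genes the study names at newly opened sites (Utf1, Hoxc8). Genes of the lists whose peak was shared, and near misses, were picked out after their values were seen. RNA-seq and other measurements of the study were not analysed here. A few genes that the rule names are not reported here.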

Additional observations from a re-analysis of the deposited data

How the results depend on the processing

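The number of control-only peaks was 2502 and ran from 1084 (only peaks of at least 250 bp in every list) to 3240 (no overlap with a donor peak but no minimum distance). Leaving out chromosome X and joining peaks up to 150 bp apart left the 6 shares and medians within their intervals and the number within 1.5 times 2502 (2465 and 2497). Asking for an overlap of 50% of both peaks gave a share of newly opened peaks of 88.7% and a 1000-cell C2C12 share of 0.430%. Counting peaks within 500 bp as shared gave 76.1%, 3.05% for the 1000-cell list and 7.52% within 5000 bp of a Toca1 peak. Peaks of at least 250 bp gave 1084 peaks, 71.5% of newly opened peaks, a median width of 314 bp, 8.40% near Toca1 and 39.1% intergenic. Of these 1084, 34 were within 5000 bp of a narrower donor peak and so could not be on the intergenic sheet, and the other 1050 gave 40.4%. With no minimum distance the values were 73.9%, a median donor distance of 14126 bp and 14.5% near Toca1, and the intergenic share was not computed because its sheet holds only peaks beyond 5000 bp. At 10000 bp the median donor distance was 27461 bp. Without any C2C12 list the share was 83.5%. Excluding the 1000-cell list as well makes its share 0 by construction. The 50% and 500 bp definitions were also applied to the 1000-cell list, so its shares moved by construction. The fall to 7.52% follows from leaving out peaks within 500 bp of a Toca1 peak. The direction in which 88.7%, 76.1% and 83.5% moved was likewise set by looser or stricter exclusion. The distances, the widths under a minimum width and the 0 of the 1000-cell list also follow from how each alternative is built. The cause of the other shifts was not tested.

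No paired analysis was possible because each condition has 1 list. Leaving out a library could not be done for the same reason. The lists hold no reads, so depth could not be weighed. A peak absent from another list means only that it did not pass the threshold there. The promoter shares under other settings and within classes of width and chromosomes were added after the data were seen.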
